A study of Oryctolagus cuniculus with 34 samples.

Results

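The repair against control comparison at 4 weeks post-repair holds 8 of the 34 libraries of the series, the left and the right supraspinatus of rabbits 63, 66, 67 and 68. These libraries were chosen by their labels: both treatments at the time code for 8 weeks of tenotomy and 4 weeks after repair. The animals were skeletally mature female New Zealand White rabbits, and no group carries a genetic change. In the repair group (n = 4) the left supraspinatus tendon was cut from the humerus, left detached for 8 weeks, sutured back through bone tunnels, and the muscle was taken 4 weeks later. In the control group (n = 4) the muscle came from the right shoulder of the same rabbits, which the methods describe as unoperated and the labels as a sham with a cut of the skin only. Because the control is the other shoulder of an animal that had surgery, it is not muscle of an untreated rabbit. RNA was extracted from a piece of the posterior lateral region only, so the values describe that region of the muscle. RNA was sequenced with poly(A) selection, and the deposited values are estimated counts per gene.

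The supraspinatus is a muscle of the rotator cuff that lifts the arm and centres the humeral head. When its tendon is detached, the muscle loses tension, its fibers shrink, and fat and fibrous tissue accumulate between them. Fat cells in muscle arise from fibro-adipogenic progenitors, interstitial cells that also make collagen, while fiber repair runs through satellite cells and is marked by myosins of early development.

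All 8 libraries carried muscle genes at high levels. In the lowest library of each, DES, the intermediate filament protein of muscle fibers, was at 2775 CPM (the count of a gene relative to the TMM-scaled size of its library), and MYOM2, a protein of the sarcomere M-band, at 2719 CPM. Total counts lay between 9220035 and 12127768, so depth was alike in the 8. The TMM scaling factors were not alike. They were 0.81 to 0.965 in the controls, 1.1 to 1.14 in the repairs of rabbits 63, 66 and 67, and 0.953 in that of rabbit 68. Each library was compared with the others by the correlation of log2 CPM over 11874 genes, as a description. The repair library of rabbit 68 was the one most like its own control, at r = 0.975, where the other repair libraries reached 0.921 to 0.945. Its correlation with the other repairs, 0.931 to 0.951, was no lower than that of rabbit 63, 0.931 to 0.946. The log2 ratios of repair to control of rabbits 63, 66 and 67 correlated with each other at 0.434 to 0.539, and those of rabbit 68 with theirs at -0.0806 to 0.219. Counts, and the log2FCs or adjusted p of most named genes, are therefore also given without rabbit 68. Of the 46 called genes named by the rule or among the genes added to it 42 stayed called without it, and the exceptions were ART3, HK2, SREBF2 and RPS15.

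The test covered the 11874 genes that passed 1 CPM in any of the 8 libraries, with limma-voom and the rabbit as a block. At 4 weeks post-repair compared to control, 219 genes (1.84% of those tested) were DE, that is, with an adjusted p under 0.05 and an absolute log2FC above 1. Of these, 181 (1.52%) were higher and 38 (0.32%) were lower in the repaired muscle. Regardless of size, 387 genes were called (3.26%), 219 of them higher (1.84%) and 168 lower (1.41%). Without rabbit 68 the DE genes numbered 439 (3.7%), 346 higher (2.91%) and 93 lower (0.783%), and 210 of the 219 were among them. Calls of any size numbered 844 (7.11%) without it. With the rabbit as a random block 89 genes were DE, 62 higher and 27 lower. With no rabbit term, as in the formula stated in the study's methods, 6 genes were DE (0.0505%), all higher, and all 6 were among the 219. Of the 6, SCD, ANGPT1 and CD36 have a symbol. Calls of any size without the block were 8 higher (0.0674%) and 8 lower (0.0674%). The count also depended on single animals: it was 69 without rabbit 63, 63 without rabbit 66 and 13 without rabbit 67. Leaving out rabbit 59 of the 2-week group, which only lends its spread to the fit, raised it to 474. Symbols, those of human orthologs, could be given to 65 of the 181 genes that rose and to 4 of the 38 that fell.

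Of the DE genes with a symbol, those that averaged 1 or more on the log2 CPM scale and moved one way in 4 of 4 rabbits were 48 higher and 3 lower. SCD (ENSOCUG00000001375), stearoyl-CoA desaturase, which makes monounsaturated fatty acids, had the largest rise. Its level was 7.16, 22.1, 29.2 and 9.68 CPM in the controls of rabbits 63, 66, 67 and 68, and 267, 480, 388 and 29.6 CPM in their repaired muscles. All 4 repair libraries lay above all 4 controls, but the repair of rabbit 68 exceeded the highest control by little. The mean rose from 17.0 ± 10.4 to 291 ± 195 CPM (SD, n = 4), a log2FC of 3.95 (SE 0.42, adjusted p = 0.000328), or 4.43 (SE 0.39, adjusted p = 4.23e-05) without rabbit 68. A second gene model with the symbol SCD, ENSOCUG00000014801, was at 0.86 to 3.53 CPM in the controls and 5.57 to 8.78 CPM in the repairs and was not called (log2FC 1.63, adjusted p = 0.0897), and reads could be split between the 2 models.

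PCK2, the mitochondrial phosphoenolpyruvate carboxykinase, was at 1.53, 2.96, 5.96 and 3.36 CPM in the controls and at 45.5, 40.4, 47.6 and 5.12 CPM in the repaired muscles of rabbits 63, 66, 67 and 68. The groups overlapped through rabbit 68 alone, whose repair library lay below the control of rabbit 67. Its log2FC was 3.30 (SE 0.50, adjusted p = 0.00312), and 3.70 (SE 0.51, adjusted p = 0.00136) without rabbit 68. CDO1, cysteine dioxygenase, which starts the breakdown of cysteine, was at 0.656, 0.57, 2.41 and 1.68 CPM in the controls and at 20.5, 15.3, 30.7 and 2.07 CPM in the repairs. Its log2FC was 3.64 (SE 0.59, adjusted p = 0.00463), or 4.18 without rabbit 68, and again only the repair of rabbit 68 lay among the controls. MC5R, a melanocortin receptor, was at 0.109 to 1.48 CPM in the controls and at 15.6, 13, 19.7 and 0.787 CPM in the repairs, with a log2FC of 3.63 (SE 0.61, adjusted p = 0.00563), or 4.05 without rabbit 68. In rabbit 68 the level of MC5R was nearly the same on both sides, 0.734 CPM in the control and 0.787 CPM in the repair.

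In other large rises the repair of rabbit 68 was low as well. CARD6, a caspase recruitment domain protein, rose from 1.70 ± 0.371 to 17.8 ± 15.1 CPM (log2FC 3.31, SE 0.74, adjusted p = 0.025). Its repair library of rabbit 68 was at 2.56 CPM, still above the highest control, at 2.10 CPM. ATRNL1, an attractin-like membrane protein, rose from 1.58 ± 0.402 to 10.8 ± 6.01 CPM (log2FC 2.71, SE 0.55, adjusted p = 0.0173), with rabbit 68 at 1.97 CPM. TKT, transketolase of the pentose phosphate pathway, rose from 7.40 ± 2.99 to 39.3 ± 23.7 CPM (log2FC 2.35, SE 0.41, adjusted p = 0.00843), with rabbit 68 at 10.1 CPM. For each of these 3 genes rabbit 68 had the lowest repair library, and without it the log2FCs were 3.80, 3.10 and 2.75, all called.

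ANGPT1 and MYH8 were different, since rabbit 68 rose with the others. ANGPT1, the ligand of the endothelial receptor TIE2, was at 12.7, 7.41, 12.1 and 12.3 CPM in the controls and at 31.4, 26.3, 32.0 and 34.1 CPM in the repairs of rabbits 63, 66, 67 and 68. The groups did not overlap, and the repair of rabbit 68 was the highest library. Its mean rose from 11.1 ± 2.48 to 30.9 ± 3.34 CPM, 2.79-fold in the fit (log2FC 1.48, SE 0.17, adjusted p = 0.000622), and the log2FC was 1.48 (SE 0.21, adjusted p = 0.0015) without rabbit 68. Without the rabbit block ANGPT1 was still called (log2FC 1.49, adjusted p = 0.00214).

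MYH8, the perinatal myosin heavy chain that fibers make before birth and again when they regenerate or lose their nerve, was at 31.4, 29.2, 37.2 and 19.6 CPM in the controls. In the repaired muscles it was at 699, 178, 115 and 178 CPM. All repair libraries lay above all controls, and rabbit 63 was far above the rest. Its log2FC was 2.97 (SE 0.62, adjusted p = 0.0181), and 2.90 (SE 0.74, adjusted p = 0.0327) without rabbit 68. Without the rabbit block MYH8 did not pass the test (adjusted p = 0.0739).

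Of the genes that fell, those that met the rule above were LSMEM2, a leucine-rich membrane protein, ASB10, an ankyrin repeat and SOCS box protein, and SYNPO, the actin-associated protein synaptopodin. LSMEM2 was at 4.70, 7.98, 3.97 and 4.93 CPM in the controls and at 1.98, 1.94, 1.52 and 2.66 CPM in the repairs (log2FC -1.41, SE 0.35, adjusted p = 0.0402). ASB10 was at 24.5, 56.2, 52.5 and 30.4 CPM in the controls and at 13.3, 18.4, 16.7 and 19.1 CPM in the repairs (log2FC -1.24, SE 0.25, adjusted p = 0.0152). SYNPO was at 272, 338, 348 and 263 CPM in the controls and at 102, 171, 152 and 147 CPM in the repairs (log2FC -1.11, SE 0.24, adjusted p = 0.0206). In all 3 genes every repair library, rabbit 68 included, lay below every control. That held for 4.4% of all genes and for 27 of the 38 DE genes that fell. The rule asked for a fall in 4 of 4 rabbits, which favours such a separation. All 3 stayed called without rabbit 68 (adjusted p = 0.036, 0.0098 and 0.0226), and none was called without the rabbit block (0.0739, 0.0728 and 0.063).

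**Figure D1:**
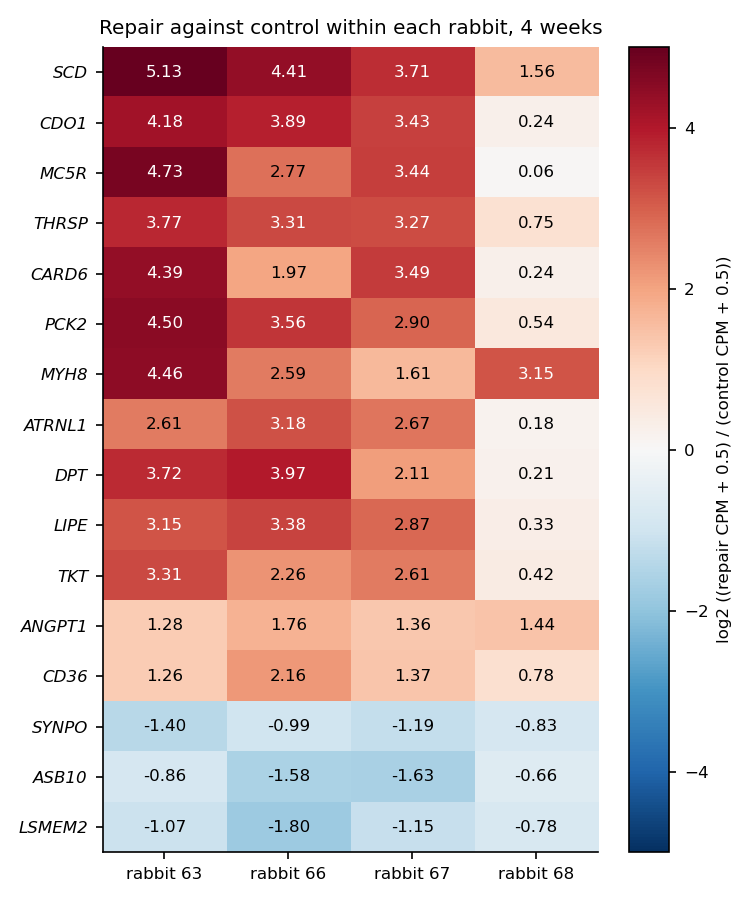
Log2 ratio of repair to control CPM, each with 0.5 CPM added, for the 16 genes named for their size or p (rows) in each of the 4 rabbits (columns); red is higher and blue lower in the repaired muscle. SCD ranges from 1.56 in rabbit 68 to 5.13 in rabbit 63, while ANGPT1 lies between 1.28 and 1.76 in all 4 rabbits.

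Most of the DE genes carry no symbol here, 116 of those higher and 34 of those lower. The unnamed gene with the smallest p among those higher in 4 of 4 rabbits, ENSOCUG00000022867, was at 2.4 to 9.35 CPM in the controls and at 24.7, 81.0, 69.6 and 3.85 CPM in the repairs (log2FC 3.18, SE 0.36, adjusted p = 0.000584). ENSOCUG00000009833 was at 0.734 to 1.82 CPM in the controls and at 13.3, 12.1, 16.8 and 2.26 CPM in the repairs, without overlap (log2FC 2.85, SE 0.34, adjusted p = 0.000643). Among those lower, ENSOCUG00000006878 went from 27.3, 13.3, 29.0 and 20.9 CPM to 8.32, 6.56, 10.4 and 12.0 CPM (log2FC -1.27, SE 0.20, adjusted p = 0.00419). ENSOCUG00000011323 went from 8.3, 3.08, 13.2 and 3.46 CPM to 0.594, 0.757, 0.725 and 0.787 CPM (log2FC -3.21, SE 0.56, adjusted p = 0.00764), and for both no repair library reached a control. All 4 of these unnamed genes stayed called without rabbit 68 (log2FC 3.46, 3.0, -1.44 and -3.47).

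The genes of 32 lists, each for a pathway or a cell type, were then read together. Of 723 symbols in the lists 531 genes were tested. Of these, 25 were DE and higher and 0 were DE and lower, while 181 (1.52%) and 38 (0.32%) of all genes were. A further 3 were called higher and 6 were called lower with a log2FC within 1 of zero. All list members have a symbol. Of the 3263 tested genes with a symbol 65 were DE and higher and 4 lower, so the 0 says little. Without rabbit 68, 134 of the 3263 were called higher. In 224 all repairs lay above all controls, and in 633 the repairs other than rabbit 68 did. Genes with a symbol were thus higher more often than all genes, whose shares stand beside the lists below.

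Adipocyte genes had the highest median of any list. Of 25 genes in this list 9 could be measured by name, and PLIN1, FABP4, LEP, PPARG and CIDEC were not among them. Of the 9, 8 were DE and higher, beside 1.52% of all genes and 65 of the 3263 with a symbol. The median log2FC was 1.63, beside 0.00 over all genes tested and 0.06 over those with a symbol. The list was chosen with earlier results of these data known, so these counts describe it and are no independent support. ADIPOQ, the fat cell hormone adiponectin, was at 152, 69.4, 108 and 167 CPM in the controls and at 506, 329, 392 and 296 CPM in the repairs of rabbits 63, 66, 67 and 68. The groups did not overlap, and rabbit 68 had the lowest repair and the highest control. ADIPOQ rose 3.19-fold in the fit (log2FC 1.67, SE 0.34, adjusted p = 0.0157), with a log2FC of 1.96 without rabbit 68.

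LIPE, hormone-sensitive lipase, which breaks down stored fat, was at 8.19, 6.61, 18.2 and 9.96 CPM in the controls and at 76.5, 73.7, 136 and 12.7 CPM in the repairs (log2FC 2.68, SE 0.44, adjusted p = 0.00463). The repair of rabbit 68 lay below the control of rabbit 67, and without rabbit 68 the log2FC was 3.16. CD36, which takes up fatty acids and is also made by muscle and endothelium, was at 137, 74.2, 146 and 145 CPM in the controls and at 328, 333, 379 and 250 CPM in the repairs. It rose 2.65-fold (log2FC 1.40, SE 0.24, adjusted p = 0.00556) with no overlap and, without the block, was called too (log2FC 1.39, adjusted p = 0.0135), and its log2FC was 1.62 without rabbit 68. THRSP, a regulator of fat synthesis, was at 0.109, 0.342, 1.88 and 0.734 CPM in the controls and at 7.82, 7.82, 22.4 and 1.57 CPM in the repairs (log2FC 3.61, SE 0.65, adjusted p = 0.00892, and 4.06 without rabbit 68).

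The remaining adipocyte genes were mostly regulators and receptors. Without rabbit 68 the log2FCs of NR1H3, MEDAG, EBF2 and HCAR1 were 1.33, 1.72, 1.82 and 2.90, all called. NR1H3, the oxysterol receptor LXR-alpha, rose from 4.51 ± 1.44 to 10.4 ± 4.28 CPM (log2FC 1.19, adjusted p = 0.024). MEDAG, which promotes adipocyte differentiation, rose from 6.55 ± 1.76 to 18.4 ± 7.22 CPM (log2FC 1.46, adjusted p = 0.0259). EBF2, a transcription factor of adipocyte precursors, rose from 4.67 ± 1.53 to 14.2 ± 6.7 CPM (log2FC 1.57, adjusted p = 0.0355). HCAR1, the lactate receptor of fat cells, was scarce at 0 to 0.209 CPM in the controls and 0.197 to 1.29 CPM in the repairs (log2FC 2.50, adjusted p = 0.0452). ITIH5, an inhibitor family protein of adipose tissue, was at 11.7, 7.53, 18.6 and 18.7 CPM in the controls and at 55.9, 51.2, 54.9 and 16.6 CPM in the repairs, and missed the threshold (log2FC 1.63, adjusted p = 0.0536).

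Rabbit 68 decided this last case. Without it ITIH5 had a log2FC of 2.15 (adjusted p = 0.0146), all 9 adipocyte genes were called higher, beside 3.42% of all genes, and all 9 had the other 3 repair libraries above the 4 controls, as 13.3% of all genes did. With rabbit 68 2 of 9, ADIPOQ and CD36, kept the groups apart, as 5.18% of all genes did. Within rabbits the median log2 ratio of the 9 genes was 1.91, 2.19 and 1.43 in rabbits 63, 66 and 67 and 0.38 in rabbit 68. In RNA from whole tissue, more cells of a type and more RNA per cell cannot be told apart.

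**Figure D2:**
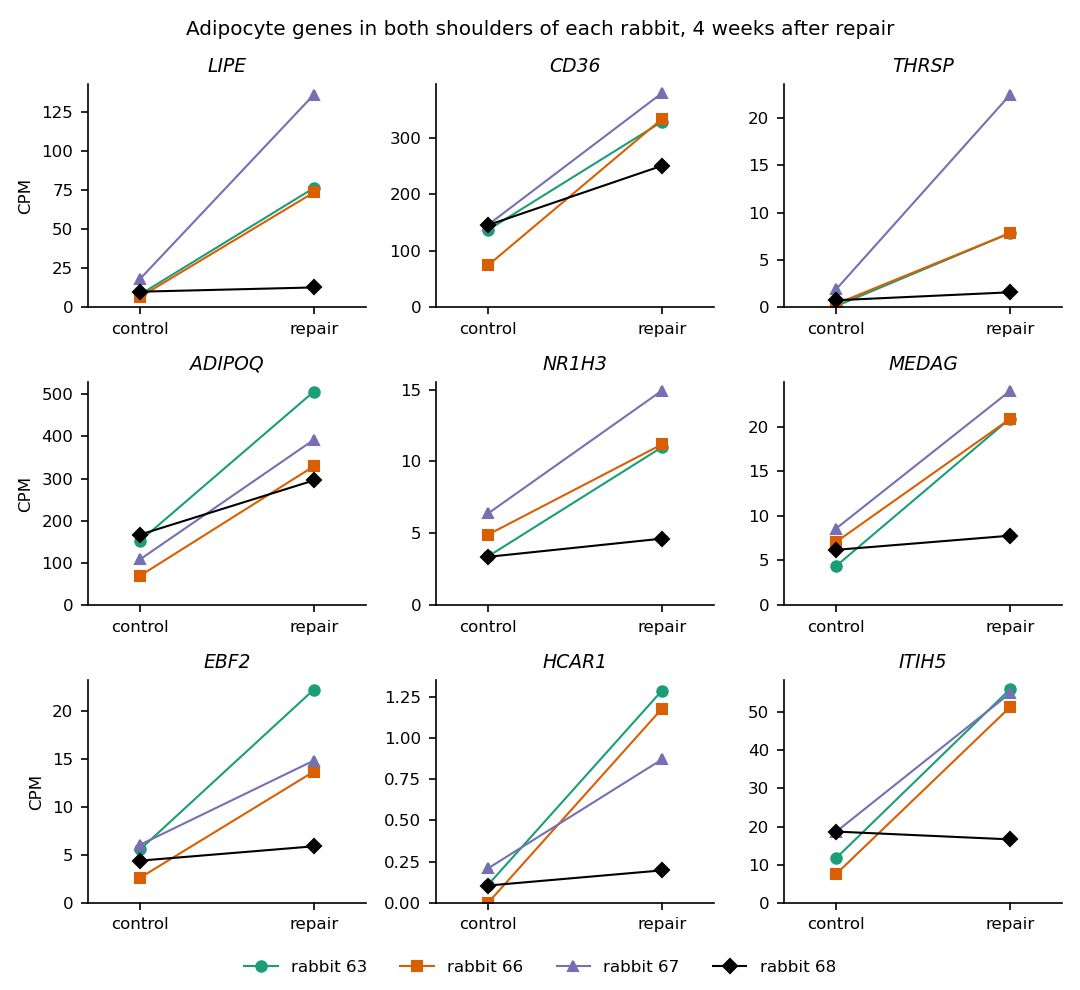
CPM (vertical axis, from 0, its range set per gene) of the 9 measured adipocyte genes in the control and the repaired muscle; each line joins the 2 shoulders of 1 rabbit. In rabbit 68 (black diamonds) LIPE goes from 9.96 to 12.7 CPM, while it rises above 70 CPM in the other 3 rabbits.

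Of 14 measured genes of fatty acid synthesis and desaturation 3 were DE and higher, SCD, TKT and THRSP described above, and the median log2FC was 0.38. With and without rabbit 68 the same number, 3, was called higher. Of 9 genes of cholesterol synthesis and uptake, SREBF2, the transcription factor that turns on cholesterol synthesis, was called lower, from 46.4 ± 9.14 to 32.0 ± 3.43 CPM (log2FC -0.52, SE 0.14, adjusted p = 0.0493), and missed the threshold without rabbit 68 (adjusted p = 0.0638). None of 18 genes of fatty acid oxidation (median -0.08) and none of 6 of the tricarboxylic acid cycle (median -0.02) was called. Without rabbit 68, HSD17B10, a mitochondrial dehydrogenase of fatty acid oxidation, was called lower (log2FC -0.64, adjusted p = 0.0427).

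Among 21 receptors for hormones, growth factors and lipid mediators 3 were DE and higher: MC5R and NR1H3 as above, and PRLR, the prolactin receptor. PRLR was at 1.31, 1.48, 1.26 and 1.89 CPM in the controls and at 4.75, 4.46, 5.58 and 2.66 CPM in the repairs, without overlap (log2FC 1.52, SE 0.32, adjusted p = 0.0184, and 1.83 without rabbit 68). The list as a whole had a median log2FC of 0.22.

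Genes of the extracellular matrix were mostly higher, and most did not pass the test. All 29 matrix glycoproteins and proteoglycans had a log2FC above 0, with a median of 1.43. Of the 29, 4 were DE and higher, beside 1.52% of all genes. OGN, the proteoglycan osteoglycin, was at 53.4, 38.8, 62.6 and 50.8 CPM in the controls and at 343, 232, 298 and 73.3 CPM in the repairs (log2FC 1.98, SE 0.43, adjusted p = 0.021), and the groups did not overlap. DPT, dermatopontin, which binds collagen fibrils, was at 4.37, 2.74, 13.2 and 8.08 CPM in the controls and at 63.5, 50.2, 58.4 and 9.45 CPM in the repairs (log2FC 2.69, SE 0.58, adjusted p = 0.021). EFEMP1, fibulin 3, was at 17.7 ± 8.06 CPM in the controls and at 150, 75.1, 110 and 15.9 CPM in the repairs (log2FC 2.16, SE 0.48, adjusted p = 0.0238). For DPT and EFEMP1 the repair of rabbit 68 lay within the range of the controls. Without rabbit 68 the log2FCs of OGN, DPT and EFEMP1 were 2.51, 3.20 and 2.73.

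SMOC1, a matricellular calcium-binding protein, was the remaining one and rose from a mean of 1.04 to 6.57 CPM (log2FC 2.55, adjusted p = 0.0481, and 2.73 and 0.0419 without rabbit 68). It and other members below the 3 smallest p of their list, CILP, SVEP1, NDUFB8, UQCRC1 and MRPL9, were named after their values were seen. Without rabbit 68 the list of matrix glycoproteins and proteoglycans held 6 genes called higher, beside 3.42% of all genes. CILP and SVEP1 were the added ones (log2FC 1.74 and 2.20, adjusted p = 0.0335 and 0.0342). Of 22 genes of the fibrillar matrix and its processing none was called, although all 22 had a log2FC above 0 and the median was 1.12. COL1A1, a chain of collagen I, was at 34.6, 37.1, 104 and 61.2 CPM in the controls and at 572, 326, 230 and 61.6 CPM in the repairs (log2FC 2.07, SE 0.85, adjusted p = 0.163). COL3A1, collagen III, had a log2FC of 1.62 (SE 0.69, adjusted p = 0.172), and COL12A1, a collagen that decorates fibrils, 2.18 (SE 0.78, adjusted p = 0.117).

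Without rabbit 68, COL5A3 and PLOD2, a collagen V chain and a lysyl hydroxylase, were called higher (log2FC 1.85 and 2.38, adjusted p = 0.0207 and 0.0415), while COL1A1, COL3A1 and COL12A1 were not (log2FC 2.82, 2.36 and 2.63, adjusted p = 0.0829, 0.0667 and 0.0774). The summed level of the 22 genes was 742, 789, 1474 and 1277 CPM in the controls and 6110, 3225, 2913 and 1155 CPM in the repairs of rabbits 63, 66, 67 and 68. In rabbit 68 the sum was thus somewhat lower in the repair than in its own control, with a single library on each side.

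Of 15 basement membrane genes NID2, nidogen 2, was DE and higher (14.4 ± 4.85 to 37.6 ± 15.9 CPM, log2FC 1.35, SE 0.35, adjusted p = 0.0443), and the median log2FC was 0.64. In this list 8 of 15 genes had all repairs above all controls, where 5.18% of all genes did. Of 21 matrix proteases and inhibitors ADAMTS5, which cleaves aggrecan and versican, was DE and higher, at 2.29, 1.03, 1.46 and 2.41 CPM in the controls and 7.33, 7.49, 7.40 and 3.25 CPM in the repairs (log2FC 1.80, SE 0.48, adjusted p = 0.0496). Of 22 genes of TGF-beta and BMP signalling CHRDL1, an antagonist of BMP ligands, was DE and higher, at 5.03, 1.60, 6.17 and 5.56 CPM in the controls and 37, 25.9, 37.6 and 6.49 CPM in the repairs (log2FC 2.51, SE 0.45, adjusted p = 0.00892). TGFBR2, a TGF-beta receptor, was called without rabbit 68 (log2FC 1.47, adjusted p = 0.0189) and not with it (1.11 and 0.0597). So were PXDN, the peroxidasin of basement membranes, and the protease ADAM19 (log2FC 1.60 and 2.64 without rabbit 68, adjusted p = 0.0426 and 0.0419). NID2, ADAMTS5 and CHRDL1 had log2FCs of 1.66, 2.19 and 2.99 without rabbit 68.

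Of 20 markers of fibro-adipogenic progenitors and fibroblasts LXN, latexin, an inhibitor of carboxypeptidases, was DE and higher (2.73 ± 0.506 to 8.79 ± 2.25 CPM, log2FC 1.66, SE 0.39, adjusted p = 0.0298, and 1.92 without rabbit 68). PDGFRA, the receptor by which these progenitors are sorted, was at 8.09, 8.78, 18.0 and 12.4 CPM in the controls and at 34.3, 24.0, 30.1 and 8.86 CPM in the repairs (log2FC 1.01, SE 0.54, adjusted p = 0.263, and 1.37 and 0.153 without rabbit 68). The median log2FC of the list was 1.15, and 1.44 without rabbit 68.

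**Figure D3:**
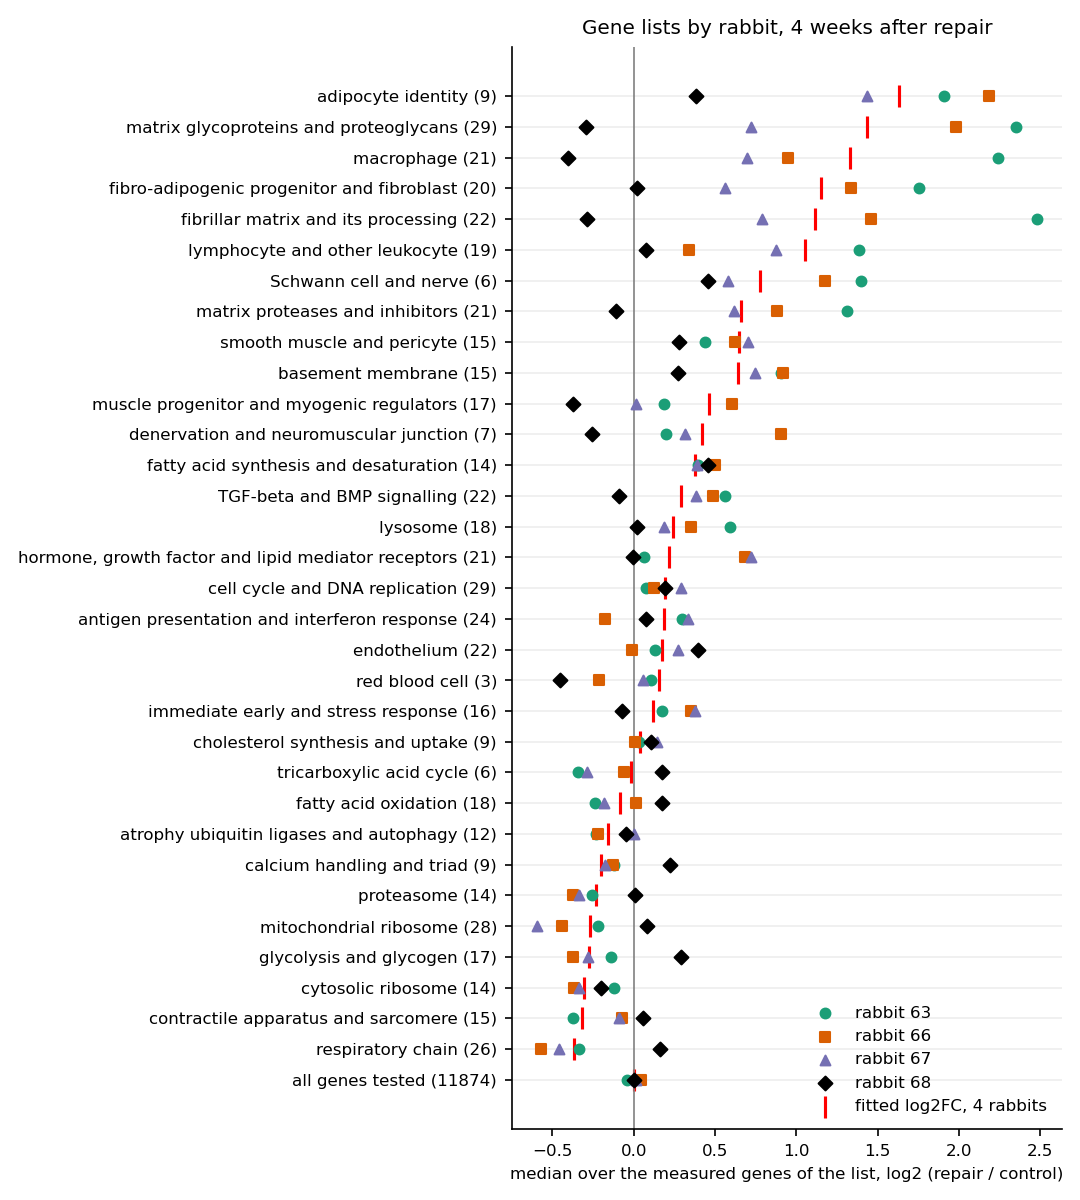
Median over the measured genes of each of the 32 lists (number in brackets) of the log2 ratio of repair to control in each rabbit (points, ratios with 0.5 CPM added) and of the fitted log2FC of the 4 rabbits (red bars); all genes tested stand in the bottom row. For fibrillar matrix the medians are 2.48, 1.46 and 0.79 in rabbits 63, 66 and 67 and -0.29 in rabbit 68.

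Markers of other cell types were read beside these genes. The 21 measured macrophage genes had a median log2FC of 1.33, 20 of 21 above 0, and none was called with or without rabbit 68. Their summed level ranged from 19.3 to 51.6 CPM in the controls and from 18.6 to 150 CPM in the repairs, with the lowest repair in rabbit 68. CD163, a scavenger receptor of macrophages, was at 0.328 to 0.732 CPM in the controls, at 3.17, 1.26 and 2.39 CPM in the repairs of rabbits 63, 66 and 67, and at 0 in that of rabbit 68 (log2FC 1.61, SE 1.27, adjusted p = 0.456). MRC1, the mannose receptor, had a log2FC of 1.33 (adjusted p = 0.398). Without rabbit 68 the log2FCs of CD163 and MRC1 were 2.13 and 1.60 (adjusted p = 0.329 and 0.328).

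Of 19 lymphocyte and other leukocyte genes IL16, a cytokine that attracts CD4+ cells, was DE and higher (5.40 ± 1.22 to 11.4 ± 4.07 CPM, log2FC 1.05, SE 0.25, adjusted p = 0.0329, and 1.26 without rabbit 68). The list's summed level was 36.0 to 38.8 CPM in the controls and 41.6 to 91.4 CPM in the repairs. None of 24 genes of antigen presentation and the interferon response was called (median 0.19). The part of leukocytes in the matrix and adipocyte values was not tested.

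Few vessel and nerve markers were called. The median log2FC was 0.64 for smooth muscle and pericytes, with 14 of 15 genes above 0. For Schwann cell and nerve genes it was 0.77, with 6 of 6 above 0, beside 0.06 over all tested genes with a symbol. Without rabbit 68 these 2 list medians were 0.67 and 0.91. Of 15 markers of smooth muscle and pericytes MCAM, an adhesion molecule of these cells and of endothelium, was DE and higher (17.9 ± 1.93 to 39.5 ± 7.06 CPM, log2FC 1.13, SE 0.30, adjusted p = 0.0482). HEYL, a Notch target in the same list, was called lower (26.7 ± 4.94 to 17.3 ± 1.56 CPM, log2FC -0.62, SE 0.12, adjusted p = 0.0151). The groups did not overlap for MCAM or HEYL, and without rabbit 68 their log2FCs were 1.33 and -0.59, both called. None of 22 endothelial genes was called (median 0.17), and their summed level was 365 to 445 CPM in the controls and 425 to 544 CPM in the repairs. Of 6 measured Schwann cell and nerve genes CNTN1, the neural adhesion molecule contactin 1, was DE and higher, at 3.82, 2.85, 3.97 and 1.78 CPM in the controls and 23.5, 18.8, 19.9 and 2.85 CPM in the repairs (log2FC 2.33, SE 0.61, adjusted p = 0.0467, and 2.52 without rabbit 68). None of 3 red blood cell genes was called, and their summed level was 7.87 to 11.1 CPM in the controls and 9.35 to 10.1 CPM in the repairs.

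Few genes of the muscle fiber itself were called. Of 34 genes in the list of the contractile apparatus 15 could be measured by name. Only MYH8 was called, 10 of the 15 had a log2FC below 0, and the median was -0.32, or -0.44 without rabbit 68. TCAP, the titin cap protein, was at 2478, 2073, 3123 and 2546 CPM in the controls and at 1408, 1447, 1429 and 1868 CPM in the repairs (log2FC -0.72, SE 0.35, adjusted p = 0.224). The groups did not overlap for TCAP. DES had a log2FC of -0.44 (adjusted p = 0.374), LDB3 of -0.46 (adjusted p = 0.39) and MYOM2 of 0.10 (adjusted p = 0.908). Without rabbit 68 the log2FCs of TCAP, DES, LDB3 and MYOM2 were -0.81, -0.55, -0.63 and -0.07, none called. The control of rabbit 66 had the highest summed level of this list, 39300 CPM against 24100 to 26700 CPM in the other controls. None of 9 genes of calcium handling and the triad was called (median -0.20). Without rabbit 68, RYR2, a ryanodine receptor, was called higher (log2FC 2.45, adjusted p = 0.0404, against 1.47 and 0.169 with it).

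Of 17 genes of muscle progenitors and myogenic regulators SRF, serum response factor, a transcription factor of contractile genes, was called lower. It was at 27.8, 45.7, 31.0 and 31.6 CPM in the controls and at 18.4, 27.5, 20.3 and 21.1 CPM in the repairs, without overlap (log2FC -0.63, SE 0.13, adjusted p = 0.0175, and -0.65 without rabbit 68). IGF1, a growth factor for muscle, was at 0.874, 0.228, 2.82 and 1.15 CPM in the controls and at 8.02, 7.07, 8.70 and 1.57 CPM in the repairs. It missed the threshold (log2FC 2.26, SE 1.00, adjusted p = 0.184), also without rabbit 68 (log2FC 2.62, adjusted p = 0.161). FGF6, a growth factor in the same list, was at 13.2, 6.27, 16.6 and 6.50 CPM in the controls. In the repairs FGF6 was at 5.84, 3.03, 2.83 and 2.85 CPM, without overlap. It also missed the threshold (log2FC -1.57, SE 0.68, adjusted p = 0.179, and -1.66 and 0.181 without rabbit 68). Of the 17 genes 9 had a log2FC above 0 and 8 below, with a median of 0.47. Of 7 genes of denervation and the neuromuscular junction MYH8 was DE and ART3, an ADP-ribosyltransferase of the fiber surface, was called higher. ART3 went from 54 ± 10.3 to 90.6 ± 13.6 CPM (log2FC 0.75, SE 0.19, adjusted p = 0.0451) and was not called without rabbit 68 (log2FC 0.62, adjusted p = 0.0913). UCHL1, in the same list, went from 56.2 ± 13.3 to 28.0 ± 3.74 CPM without overlap. It missed the threshold (log2FC -0.99, SE 0.33, adjusted p = 0.0977, and -1.03 and 0.108 without rabbit 68). Of the 7 genes 4 had a log2FC above 0 and 3 below, with a median of 0.42.

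Of 17 genes of glycolysis and glycogen HK2, hexokinase 2, was called lower, at 57.7, 50.9, 57.9 and 81.3 CPM in the controls and 32.2, 31.2, 35.2 and 41.7 CPM in the repairs (log2FC -0.81, SE 0.20, adjusted p = 0.0339). The groups did not overlap. Without rabbit 68 the log2FC was -0.75 (SE 0.23, adjusted p = 0.0589). The median log2FC of the list was -0.27.

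Of 26 genes of the respiratory chain 1 had a log2FC above 0, the median was -0.37, and none was called. Without rabbit 68, BCS1L, NDUFB8 and UQCRC1, parts or assembly factors of complexes I and III, were called lower (log2FC -0.73, -0.71 and -0.68, adjusted p = 0.00634, 0.0377 and 0.0405), beside 3.69% of all genes called lower in that fit. Of 28 genes of the mitochondrial ribosome none was called with 4 rabbits (median -0.27) and 6 were called lower without rabbit 68 (median -0.39), MRPL9 among them (log2FC -0.56, adjusted p = 0.019). The median log2 ratio of the respiratory chain was -0.34, -0.57 and -0.46 in rabbits 63, 66 and 67 and 0.16 in rabbit 68.

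The other lists held few calls. None of 14 proteasome genes (median -0.23), none of 12 genes of atrophy and autophagy (median -0.16) and none of 29 genes of the cell cycle and DNA replication (median 0.19) was called. BNIP3, a receptor for the removal of mitochondria, missed the threshold with rabbit 68 (log2FC -0.77, adjusted p = 0.0561) and passed it without (log2FC -0.93, adjusted p = 0.035). Without rabbit 68, MUL1, a mitochondrial ubiquitin ligase of the atrophy list, and PSMB7, a proteasome subunit, were also called lower (log2FC -0.71 and -0.53, adjusted p = 0.0248 and 0.0498), and CDKN3, a phosphatase of the cell cycle, was called higher (log2FC 1.65, adjusted p = 0.0154). Of 18 lysosomal genes LIPA, the acid lipase, and HGSNAT, which degrades heparan sulfate, were called higher (log2FC 0.96 and 0.72, adjusted p = 0.0482 and 0.0496), and stayed so without rabbit 68 (log2FC 1.25 and 0.99). Of 16 immediate early and stress genes RND3, which loosens actin fibers, was DE and higher (18.0 ± 10.7 to 39 ± 13.2 CPM, log2FC 1.19, SE 0.26, adjusted p = 0.0238), and JUN, an AP-1 subunit, was called lower (51 ± 14.7 to 31.2 ± 4.96 CPM, log2FC -0.68, SE 0.18, adjusted p = 0.0466). Both stayed called without rabbit 68 (log2FC 1.41 and -0.78), and KLF6, a zinc finger factor, was called higher then (log2FC 0.79, adjusted p = 0.0421).

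Of 14 genes of the cytosolic ribosome RPS15 was called lower (log2FC -0.60, SE 0.15, adjusted p = 0.0413, and 0.0551 without rabbit 68). The gene model ENSOCUG00000003336, which bears the symbol RPS6, was at 0 to 0.0217 CPM in the 4 controls and at 40.2, 29.3, 17.7 and 31.6 CPM in the 4 repairs (adjusted p = 0.0802). Over all 33 libraries of the fit it was above 10 CPM in 17 and below 0.1 CPM in 13, and 5 controls of 1 and 8 weeks were among the 17. Ribosomal protein genes have near-identical copies among which reads can be split, so this value is uncertain.

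Since the ratios of rabbit 68 were the least like those of the others, the genes that were DE in the other 3 rabbits were read in rabbit 68. Its values had no part in the fit that called these genes, but they counted in the 1 CPM filter over the 8 libraries. Of the 346 genes that were higher, 233 were also higher in rabbit 68 (67.3%), beside 50.2% of all genes tested, and the median log2 ratio was 0.21 there, against 1.70, 1.76 and 1.62 in rabbits 63, 66 and 67. Of the 93 that were lower, 71.0% were lower in rabbit 68 (49% of all genes), with a median of -0.30. The direction in rabbit 68 was thus shared more often than not, and the size was small. Among the 181 genes DE with all 4 rabbits, 25 had a log2 ratio above 1 in rabbit 68, and 9 of these have a symbol. They were SCD, ANGPT1, MYH8, CHN1, SLC6A6, OSBPL7, OR51E2, ADAMTSL1 and NKIRAS1, of which those outside the rule were named after their values were seen.

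**Figure D4:**
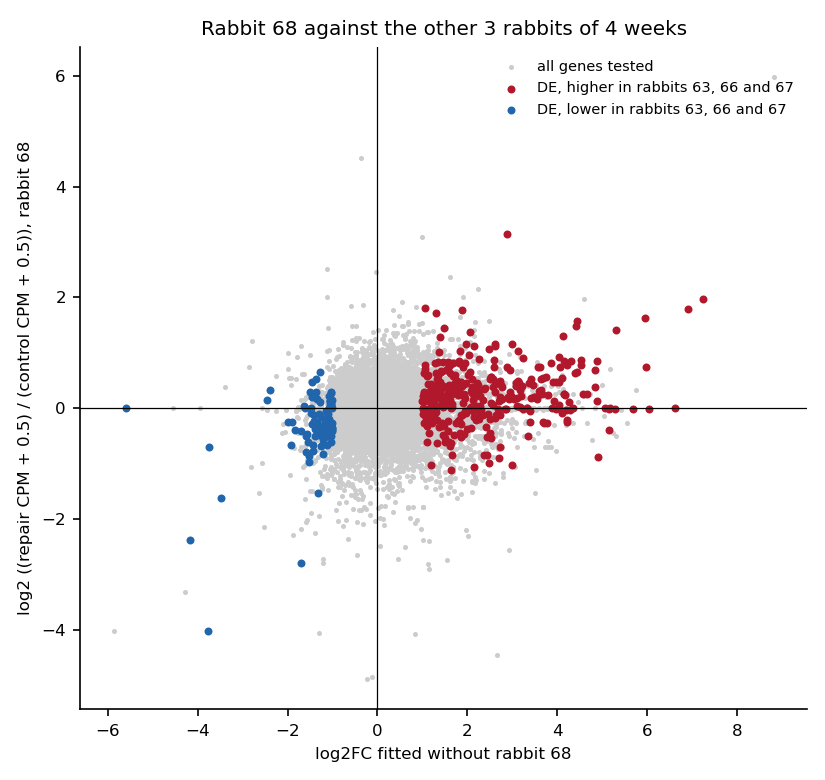
Log2 ratio of repair to control in rabbit 68 (vertical axis, 0.5 CPM added) against the log2FC fitted without rabbit 68 (horizontal axis), each point 1 gene; red and blue points are the 346 and 93 DE genes of the other 3 rabbits. The red points lie mostly just above zero in rabbit 68, with a median of 0.21.

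AQP8, a water channel, had the smallest p of all genes, and is named after its values were seen because it did not rise in rabbit 68. It was at 0.656, 2.28, 0.418 and 0.105 CPM in the controls and at 57.5, 87.7, 28.8 and 0.0984 CPM in the repairs of rabbits 63, 66, 67 and 68. In rabbit 68 both values stand for about a single read, and how much they weighed in the fit was not tested. The log2FC was 5.49 (SE 0.48, adjusted p = 3.28e-05), 5.70 (SE 0.50, adjusted p = 4.23e-05) without rabbit 68 and 4.50 (adjusted p = 0.464) without the block.

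The 4-week effect was set beside those of the other rabbits at 1, 2 and 8 weeks, which share no library with it. All these effects come from the same fit and share its estimate of each gene's spread. Over the same 11874 genes 1366 (11.5%) were DE at 1 week (9.54% higher, 1.96% lower), 1587 (13.4%) at 2 weeks (12.3% higher, 1.07% lower) and 1 (0.00842%) at 8 weeks. The libraries of 2 and 4 weeks bear titles of one style and those of 1 and 8 weeks of another, so a difference between 4 weeks and 1 or 8 weeks cannot be told apart from one between these series of libraries. Of the 181 genes that were DE and higher at 4 weeks, 167 were called higher at 1 week and 154 at 2 weeks, where 15.5% and 19% of all genes were called higher. At 8 weeks 173 of the 181 had a log2FC above 0, with a median of 0.74. Of the 38 that were lower, 27 were called lower at 1 week and 24 at 2 weeks, where 12.7% and 14% of all genes were. Because the estimate of spread is shared, the overlap of calls between times is not independent agreement.

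Called higher at 4 weeks and at neither 1 nor 2 weeks were 9 of the 181 genes, RND3 and NKIRAS1 the ones with a symbol. RND3 had a log2FC of 0.52 at 1 week and 0.34 at 2 weeks (adjusted p = 0.124 and 0.256). NKIRAS1, an inhibitor of NF-kappaB signalling, was at 1.8 to 3.44 CPM in the controls and at 18.6, 1.96, 2.82 and 8.1 CPM in the repairs of rabbits 63, 66, 67 and 68 at 4 weeks (log2FC 1.55, SE 0.38, adjusted p = 0.0361). It did not rise in rabbit 66, and the call was lost without rabbit 68 (adjusted p = 0.0556). Its log2FC was -0.41 at 1 week and -0.71 at 2 weeks. That does not show that the effects differ, which was tested directly.

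The effect at 4 weeks differed from that at 2 weeks in 0 genes by limma-voom (618 at an unadjusted p under 0.05) and in 0 by edgeR, against 6 by DESeq2. It differed from that at 8 weeks in 0 genes (463 at an unadjusted p under 0.05), 0 by edgeR and 3 by DESeq2. From that at 1 week it differed in 1 gene by limma-voom (972 at an unadjusted p under 0.05), 0 by edgeR and 29 by DESeq2. Between 4 and 2 weeks the lowest adjusted p of any gene was 0.718.

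The time courses of the named genes are therefore given as values. LIPE had a log2FC of 1.92 (SE 0.39), 1.11 (SE 0.37), 2.68 (SE 0.44) and 0.71 at 1, 2, 4 and 8 weeks, and CD36 of 0.78 (SE 0.25), 0.41 (SE 0.21), 1.40 (SE 0.24) and 0.28. SCD had 3.21, 3.66, 3.95 and 1.41, and ANGPT1 had 0.45, 0.99, 1.48 and 1.08. MYH8 was called at 1 week (log2FC 2.81, SE 0.66, adjusted p = 0.00754) and not at 2 weeks (-0.14, SE 0.52, adjusted p = 0.861), and the difference between 4 and 2 weeks, 3.10, did not pass the test.

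Counts of called genes in a list at each time stand beside the share of all genes called, which was 15.5%, 19% and 1.84% higher and 12.7%, 14% and 1.41% lower at 1, 2 and 4 weeks. Of the 3263 genes with a symbol, 663, 928 and 73 were called higher and 363, 417 and 32 lower at these times. Macrophage genes had medians of 1.38, 2.72, 1.33 and 0.38 at 1, 2, 4 and 8 weeks, with 10, 20 and 0 of 21 called higher at the first 3 times. Fibrillar matrix genes had medians of 1.73, 1.84, 1.12 and 0.44, with 12, 17 and 0 of 22 called higher, the last being 2 without rabbit 68. Adipocyte genes had medians of 1.32, 1.53, 1.63 and 0.62, with 9, 8 and 8 of 9 called higher. Respiratory chain genes had medians of -0.62, -0.56, -0.37 and -0.05, with 17, 20 and 0 of 26 called lower, the last being 3 without rabbit 68. Fewer genes of any kind were called at 4 weeks, so these counts do not compare the lists between times.

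**Figure D5:**
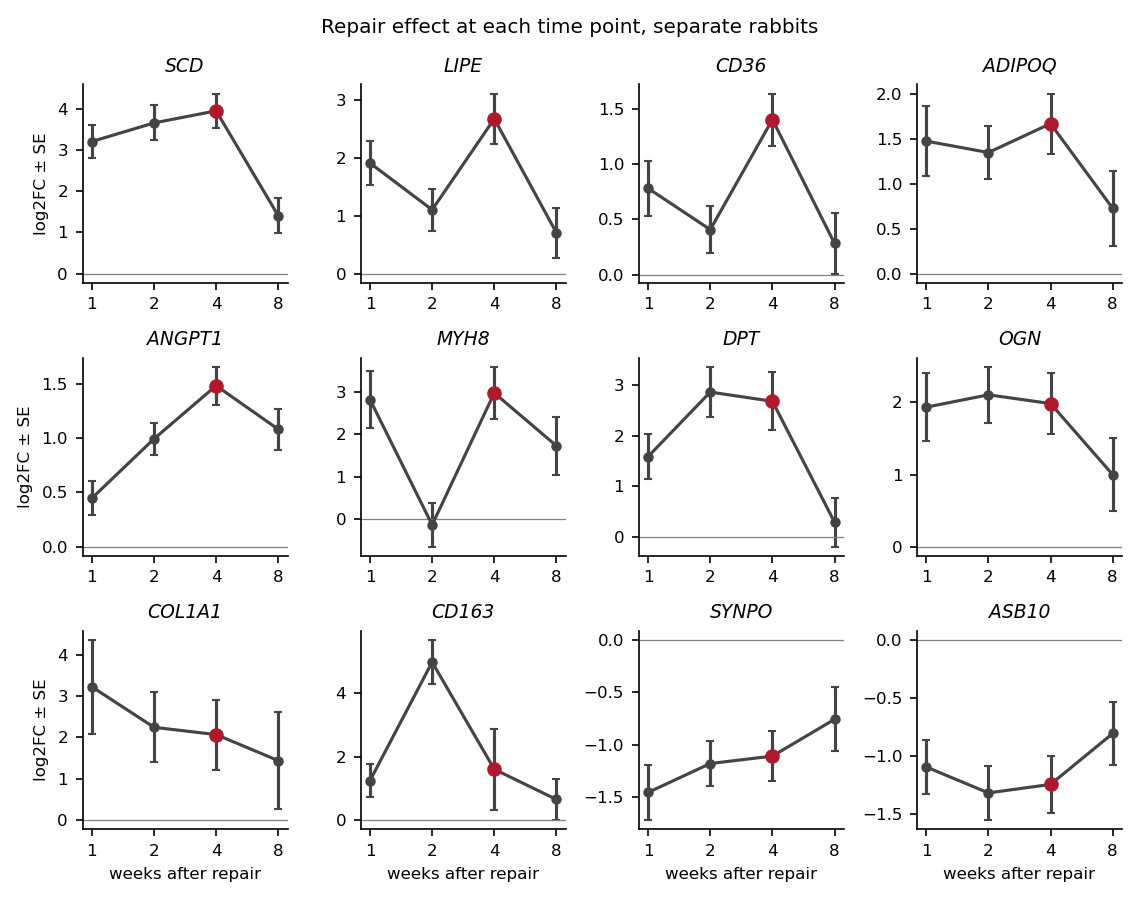
Fitted log2FC of repair against control (vertical axis, ± SE) at 1, 2, 4 and 8 weeks after repair (horizontal axis, evenly spaced) for 12 genes, with 4 weeks in red; each time point is a separate group of rabbits. LIPE and CD36 are highest at 4 weeks (2.68 and 1.40), CD163 at 2 weeks (4.97 against 1.61), and none of these differences between times passed the test.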

How the data were processed

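Per the study's methods, single-end reads of stranded poly(A) libraries were aligned with STAR to the Ensembl OryCun2.0 rabbit genome and counted with RSEM; the labels also name FastQC, edgeR and limma. The expected counts per gene that the authors deposited (23669 genes, 34 libraries, 0 unused columns) are neither scaled nor whole. Groups come from the labels' treatment and time code, and pairs from the rabbit numbers in the titles. Nothing else is said of the replicates, so beyond the animal the spread includes sampling of the muscle piece.

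The 11874 genes that passed 1 CPM in any of the 8 libraries entered a limma-voom fit after TMM scaling (R 4.3.3, edgeR 4.0.16, limma 3.58.1). It used 33 libraries, rabbit 3 of 8 weeks giving its control alone, with 1 coefficient per rabbit and 1 repair effect per time point (12 residual and 4.35 prior degrees of freedom). Adjusted p-values are Benjamini-Hochberg values of limma's moderated test over all genes. The same rabbit gave both shoulders, so the numbers pair the libraries. Residuals of the repair and the control correlated at 0.147, 0.0165, 0.424 and 0.162 in rabbits 63, 66, 67 and 68. With the control of another rabbit the highest values were 0.0158, 0.0695, -0.106 and 0.0781. The repair of rabbit 66 was thus closer to another rabbit's control than to its own. The formula stated in the study's methods has no rabbit term, and that design is given beside the main one. Ratios within a rabbit use CPM + 0.5. For edgeR's quasi-likelihood test and DESeq2 1.42.0 counts were rounded.

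Named genes are DE genes with a symbol, log2 CPM averaging 1 or more and 1 direction in 4 of 4 rabbits: the 10 largest rises and falls and the 3 smallest p each way, plus the 3 smallest p of each list among members averaging 0 or more. All members of the adipocyte list, and a few muscle, matrix and macrophage genes, were added to these after their values were seen. Members, lists and tests were chosen with earlier results of these data known. Symbols came from tables of the study that were held only in part, for 3263 of the 11874 genes, and these are not a random subset. Totals of 9220035 to 12127768 counts leave genes below 1 CPM with about 10 reads or fewer.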

Additional observations from a re-analysis of the deposited data

Results flagged for a closer look

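Of 140 groups of 4 values examined (named genes, list sums and totals at 4 weeks), 12 had 1 library set apart from the other 3 by most of the group's range, where chance gives about 1 in 20. Given here is the gap to the nearest library as a share of the range. In the repairs, rabbit 68 was low for PCK2 (0.831, 5.12 CPM against 40.4 to 47.6), ADAMTS5 (0.962, 3.25 CPM against 7.33 to 7.49) and the sum of TGF-beta and BMP genes (0.973, 265 CPM against 388 to 392), and high for the sum of endothelial genes (0.873, 544 CPM against 425 to 440). Rabbit 63 was high for MYH8 (0.891, 699 CPM against 115 to 178) and for the sum of denervation genes, which holds MYH8 (0.918). Rabbit 67 was high for the sum of immediate early genes (0.876).

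In the controls, rabbit 66 was low for ANGPT1 (0.897, 7.41 CPM against 12.1 to 12.7) and CD36 (0.873, 74.2 CPM against 137 to 146) and high for the sums of glycolytic (0.837) and contractile genes (0.835). Rabbit 68 was high for the sum of myogenic regulators (0.894).

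The repair effect of ENSOCUG00000025906, which has no symbol here, differed between 4 weeks and 1 week by -2.23 on the log2 scale (adjusted p = 0.0413). It was -1.08 at 4 weeks and 1.15 at 1 week, and the difference was not called without any 1 of the 4 rabbits of 4 weeks or by edgeR.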

How the results depend on the processing

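The number of calls changed much with the processing. The DE genes at 4 weeks numbered 219 with the rabbit as a block and 6 with no replicate block, 89 with the rabbit as a random block (correlation 0.183), 517 by DESeq2, 6 with the 8 libraries alone, 38 with all 34 libraries and 388 with sample quality weights. Calls of any size, 387, became 16, 230, 1010, 6, 38 and 755 in the same order. Without 1 rabbit of 4 weeks the DE genes ranged from 13 (rabbit 67) to 439 (rabbit 68) and the calls from 13 to 844, and without rabbit 59 of 2 weeks they were 474 and 1091. With no block and 1 library of 4 weeks left out they ranged from 2 to 14 and from 2 to 37, at 11 and 32 without the control of rabbit 63 and 14 and 37 without that of rabbit 68, except without the repair of rabbit 68, which gave 200 and 296. Under edgeR, median-ratio scaling and 3 other filters the DE count stayed within 1.5 times, at 187 to 263. Without rabbit 68, 439 DE genes became 117 with no block, 940 by DESeq2, 105 with all 34 libraries and 676 with quality weights, alternatives chosen after seeing the data, as were edgeR and DESeq2 for the differences between times. Of those differences, the 1 gene against 1 week became 0 by edgeR and 0 without any 1 rabbit of 4 weeks; DESeq2 gave 29, and 6 and 3 against 2 and 8 weeks. The cause of these changes was not tested.

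The 46 named genes called kept their sign in all 1654 values under the alternatives and their call in 948; with no block 3 stayed called, without rabbit 68 42, without rabbit 67 5. Among 76 not called, 7 values changed sign. Leaving out 1 rabbit, PYGM ranged from -0.71 to 0.031 and ATP2A1 from -0.70 to 0.16 (rabbits 68 and 66), TNNT3 from -0.59 to 0.28, XK from -0.024 to 0.29 and MYOM2 from -0.071 to 0.23. With no block, TNNT3 without the control of rabbit 66 was 0.073 and MYOM2 without the repair of rabbit 68 was -0.053.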

Other observations

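The genes given here have a symbol, were called, belong to no list and were chosen after their values were seen. SLC6A6, the taurine transporter, went to 26 CPM from 10 CPM (log2FC 1.37, adjusted p = 0.0155), with a log2 ratio of 1.28 in rabbit 68. CSAD, which acts after CDO1 in taurine synthesis, went from 1.12 to 3.18 CPM (log2FC 1.46, adjusted p = 0.0234). GNAI1, an inhibitory G protein subunit, RGS2, a regulator of G protein signalling, and ARRB1, an arrestin, were DE and higher (log2FC 1.46, 1.58 and 1.77). SOD3, the extracellular superoxide dismutase, went from 8.00 to 31.6 CPM (log2FC 2.06, adjusted p = 0.0139), with 0.04 in rabbit 68. IDH1, cytosolic isocitrate dehydrogenase, was called higher (log2FC 0.95, adjusted p = 0.024). All of SLC6A6, CSAD, GNAI1, RGS2, ARRB1, SOD3 and IDH1 stayed called without rabbit 68 (log2FC 1.39, 1.62, 1.68, 1.82, 2.24, 2.30 and 1.19).

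Of genes called lower outside the lists, SAMD4A, a translational repressor, fell from 302 to 173 CPM (log2FC -0.81, adjusted p = 0.0116) with -0.74 in rabbit 68, and VPS26B, a retromer subunit, fell from 15.9 to 10.4 CPM (log2FC -0.62, adjusted p = 0.00778) with -0.51. Both were called without the rabbit block as well. CARM1, an arginine methyltransferase, and MAPKAPK3, a kinase downstream of p38, were called lower too (log2FC -0.57 and -0.64), the second not without rabbit 68 (adjusted p = 0.0543). KCNG4, a potassium channel subunit, was at 2.56 CPM in the controls and 0.19 CPM in the repairs (log2FC -3.39, adjusted p = 0.0496).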
